A study of Mus musculus with 16 samples.

Results

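Ventricles of Npr1 knockout mice after 2 weeks of lactation were compared with ventricles of Npr1 knockout mice that had never been pregnant. The groups were taken from the labels alone and hold 4 arrays labelled Lactation_Npr1-/- and 4 labelled NP_Npr1-/-, together 8 of the 16 arrays of the study. The mice were female, each array held ventricular RNA of 1 mouse, and the 4 mice of a group were independent of each other. The other 8 arrays came from lactating and nulliparous wild-type (Npr1+/+) females, 4 of each, handled in the same way. Both knockout groups carry the deletion, so that the comparison is of lactation within 1 genotype. The labels name no strain, age, litter size or further allele.

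Npr1 encodes natriuretic peptide receptor A, a membrane guanylyl cyclase that binds atrial and B-type natriuretic peptide and makes cGMP. Stretched heart muscle releases both peptides, which lower blood pressure through the kidney and vessels and, within the heart, restrain muscle growth and scarring. Mice without the receptor are known for high blood pressure and for large, fibrotic hearts, and pregnancy and lactation are known to load and enlarge the heart reversibly.

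Expression was measured on single-colour microarrays. A level is the log2 signal of a gene's brightest probe minus the log2 75th percentile of all probes on that array, so that 0 is as bright as that percentile and +1 is 2 times as bright. Levels of different genes come from different probes and are not set against each other. Values listed for a group are replicates 1, 2, 3 and 4 in that order. A change is the mean level of the lactating knockout arrays minus that of the nulliparous knockout arrays, given with its standard error from limma's fit to all 16 arrays. A gene was called where limma's p-value, adjusted by Benjamini-Hochberg over the 14060 genes tested, was below 0.05. Where no array of a group was well above background, levels under each array's lowest signal well above background were raised to it. A change given as a bound (at least, or beyond) counts from that approximate floor, since a brighter probe may still fail the flag. The p-values beside bounds use the measured values.

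The 8 knockout arrays were not evenly spread. Nulliparous replicate 4 stood away from the other nulliparous arrays and near the lactating ones. On the first principal component of the knockout arrays, which held 60.3% of the variance, the lactating arrays scored 29.18, 36.55, 32.52 and 39.07. The nulliparous arrays scored -51.55, -50.37 and -45.32, while replicate 4 scored 9.92. It correlated with the lactating arrays at a mean of 0.9865 over genes, and with nulliparous replicates 1 to 3 at 0.9755. Its label was kept, and results are given with it. The value without it follows where a gene's call changes or its fold moves by over 1.5 times, or where a list's count of calls in a direction moves by 2 or more.

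The lactating arrays were also brighter. The 75th percentile was 305, 295, 347 and 316 units on the lactating arrays, against 200, 205, 165 and 284 units on the nulliparous arrays. As a percentage of the signal of the added spike-in RNA it was 4.57, 5.35, 6.16 and 4.65% on the lactating arrays, against 2.34, 3, 2.27 and 4.12% on the nulliparous arrays. Every lactating array lay above every nulliparous one on both measures, with nulliparous replicate 4 next to them. The 100 brightest probes took 16.8 to 18.4% of the signal on the lactating arrays, against 21.5 to 25.3% on nulliparous replicates 1 to 3 and 19.6% on replicate 4. All changes below are therefore relative to the 75th percentile of each array.

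**Figure D1:**
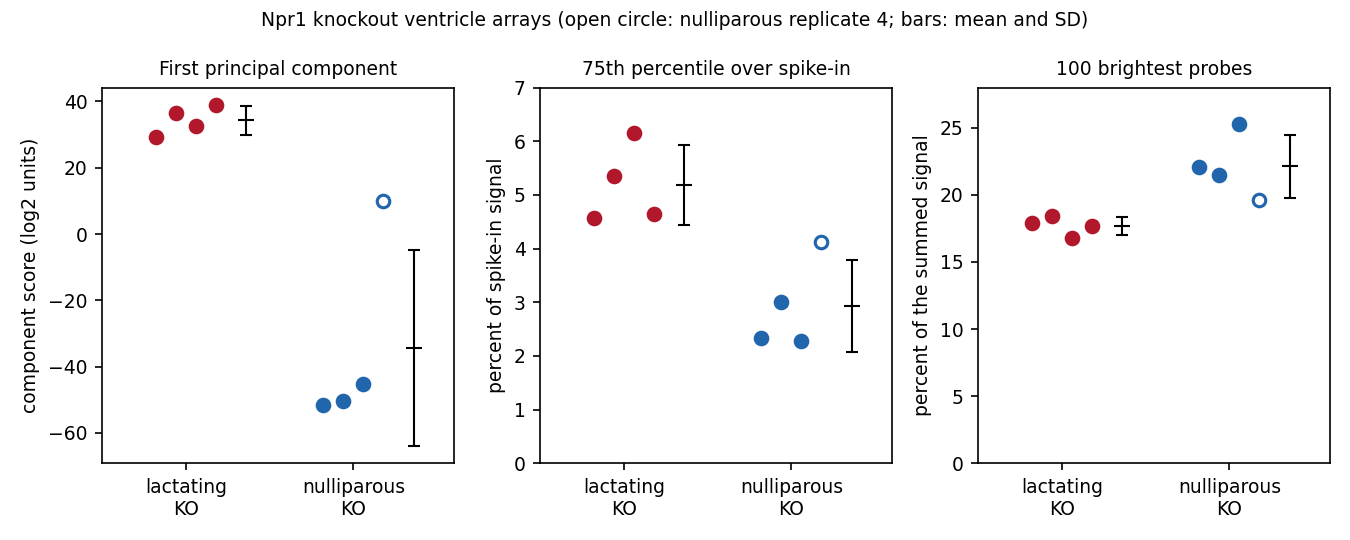
The 8 knockout arrays by group, lactating left of nulliparous, with one point per array for the first principal component score, the 75th percentile as a percentage of spike-in signal, and the share of signal taken by the 100 brightest probes. An open circle is nulliparous replicate 4, and bars are the mean and SD of a group. Nulliparous replicate 4 scored 9.92 on the component, between the lactating arrays (29.18 to 39.07) and the other nulliparous arrays (-51.55 to -45.32).

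Of the 14060 genes tested, 3591 (25.5%) were called higher in lactating than in nulliparous knockout ventricles and 2612 (18.6%) were called lower. Together they are 44.1% of the genes tested, the background against which each group of genes below is read. Changes of at least 2-fold were called for 634 genes upward and 404 downward. The levels of the groups did not overlap for 2671 genes upward (19%) and 1976 downward (14.1%). The direction split depends on the scale. With spike-in scaling in place of the 75th percentile 11531 genes were called higher and 161 lower, and the median change of all genes was 0.915, against 0.061 on the main scale. The spike-in scale also ended the calls of 17 genes named below, the falls of Nfatc1, Rgs2, Rgs4, Corin, Col15a1, Ppargc1a, Abcc9, Esr2, Hlf, Per1, Per3, Actg2 and Myl4, and those of Myh6, Acadvl, Decr1 and Acacb, which turned upward. The called falls of Mcm7 and Pi4kb became called rises there, at 0.52 and 0.51. Some genes not called on the main scale were called higher, among them Npr2 (0.89), Npr3 (1.1), Prkg1 (1.19), Myh7 (1.33) and Col3a1 (1.76). With each array centred on its median gene 5305 were called higher and 1395 lower, at a median change of 0.242. Without nulliparous replicate 4 the calls were 4305 higher (30.6%) and 3188 lower (22.7%), 53.3% of the genes tested, and 6100 genes (43.4%) were called both with and without it. Replicates 1 and 2 of each group shared one slide and replicates 3 and 4 another, and array position and group cannot be told apart. Slide 2 alone, which holds nulliparous replicate 4, gave 0 calls in limma (2057 genes at an unadjusted p under 0.05), against 6168 calls on slide 1 alone.

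The targeted gene could not be used to check the labels. The single Npr1 probe read -4.27, -3.84, -3.63 and -4.04 on the lactating knockout arrays, against -3.71, -3.93, -4.15 and -3.87 on the nulliparous knockout arrays. It was well above background on 3 lactating and 2 nulliparous knockout arrays and was not tested. In wild-type ventricles it read -4.68, -3.71, -3.53 and -3.93 on the lactating arrays, against -4.23, -3.62, -4.11 and -4.47 on the nulliparous arrays. The 4 groups overlapped. The sources used here do not place the probe relative to the deleted part of the gene.

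The natriuretic peptides belong to the fetal heart programme, genes that heart muscle expresses before birth and again under load. Of 24 measured genes listed with the programme 11 were called higher, 4 lower and 9 neither, with a median change of 0.26. Without nulliparous replicate 4 they were 9, 5 and 10, at a median of 0.18. The 4 called lower with all arrays were Myh6, Nfatc1, Myl4 and Myl7. Since Myh6 is an adult chain, the lower count is not a count of fetal genes alone. The steepest rise was in Acta1, the skeletal isoform of alpha-actin, which the adult mouse ventricle otherwise holds at low level. Acta1 read 7.68, 7.78, 7.51 and 8.49 on the lactating arrays, against 3.03, 4.73, 4.84 and 4.99 on the nulliparous arrays. All lactating arrays were higher than all nulliparous ones, and nulliparous replicate 1 was the lowest. The change was 3.47 ± 0.42, or 11.1-fold (adjusted p = 0.000437, limma).

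The promoter of Acta1 is shown because CArG boxes, the sites bound by serum response factor, are a known feature of muscle actin promoters. It is the 250 bases before the RefSeq start on GRCm38.p6, chr8:123894776-123895025, minus strand. Capitals mark CArG boxes:
Acta1: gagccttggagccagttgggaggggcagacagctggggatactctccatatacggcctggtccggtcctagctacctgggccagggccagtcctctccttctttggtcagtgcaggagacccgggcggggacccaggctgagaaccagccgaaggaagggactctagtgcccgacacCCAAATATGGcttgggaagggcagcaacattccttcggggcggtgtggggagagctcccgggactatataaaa
With both strands searched, the CArG box was present in 14.8% of 27 windows of the programme genes, which belong to 4 of the 20 genes that have a window, and in 1.47% of 32851 windows in the RefSeq table. The windows of Nppb and Nppa hold no CArG box. A match describes these letters only.

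Nppb, which encodes B-type natriuretic peptide, read 7.61, 8.0, 7.01 and 7.59 on the lactating arrays, against 4.62, 4.2, 5.39 and 5.08 on the nulliparous arrays. The groups were well separated, at a change of 2.73 ± 0.39 or 6.62-fold (adjusted p = 0.000483). Nppa, which encodes atrial natriuretic peptide, read 9.71, 10.15, 8.89 and 9.71 on the lactating arrays, against 9.46, 8.83, 8.33 and 7.78 on the nulliparous arrays. The groups overlapped, since nulliparous replicate 1 exceeded lactating replicate 3. Its change of 1.01 ± 0.34 was called (adjusted p = 0.0265) but was 0.74 without nulliparous replicate 4 (adjusted p = 0.0721). The call also ended without nulliparous replicate 3 or lactating replicate 1, 2 or 4.

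Other load-responsive muscle genes rose in the knockout. Ankrd1, a titin-binding stress protein, read 7.91, 8.33, 7.37 and 7.89 on the lactating arrays, against 6.72, 6.88, 5.97 and 6.96 on the nulliparous arrays, a change of 1.24 ± 0.27 (adjusted p = 0.00299). Rcan1, an inhibitor of calcineurin that is itself induced by calcineurin, read 2.99, 3.89, 2.88 and 3.08 on the lactating arrays, against 1.5, 1.36, 1.29 and 2.1 on the nulliparous arrays, a change of 1.65 ± 0.34 (adjusted p = 0.00209). For both genes the lactating arrays all lay above the nulliparous ones. Xirp2, an actin-binding protein of the intercalated disc, was higher by 0.92 ± 0.13 (adjusted p = 0.000471) and Mybpc2, the fast skeletal form of myosin-binding protein C, by 1.08 ± 0.22 (adjusted p = 0.00183). Csrp3 and Gata4, a muscle LIM protein and a cardiac transcription factor, were called higher at 0.4 and 0.58.

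The myosin heavy chains did not follow the actin. Myh6, the adult fast alpha chain, read 10.12, 10.26, 9.98 and 10.1 on the lactating arrays, against 10.75, 10.81, 11.01 and 10.41 on the nulliparous arrays. It was lower on every lactating array, at a change of -0.63 ± 0.13 (adjusted p = 0.00187), which was 0.22 with spike-in scaling (adjusted p = 0.191) and -0.09 with quantile normalization (adjusted p = 0.412). Myh7, the slow beta chain of the fetal programme, read 8.19, 9.02, 7.25 and 7.54 on the lactating arrays, against 9.13, 8.65, 6.36 and 5.97 on the nulliparous arrays. These ranges overlapped almost fully and the change of 0.47 ± 0.63 was not called (adjusted p = 0.57), and it was -0.05 without nulliparous replicate 4. Nfatc1, a transcription factor activated by calcineurin, fell by 0.95 on the log2 scale (adjusted p = 0.0013).

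**Figure D2:**
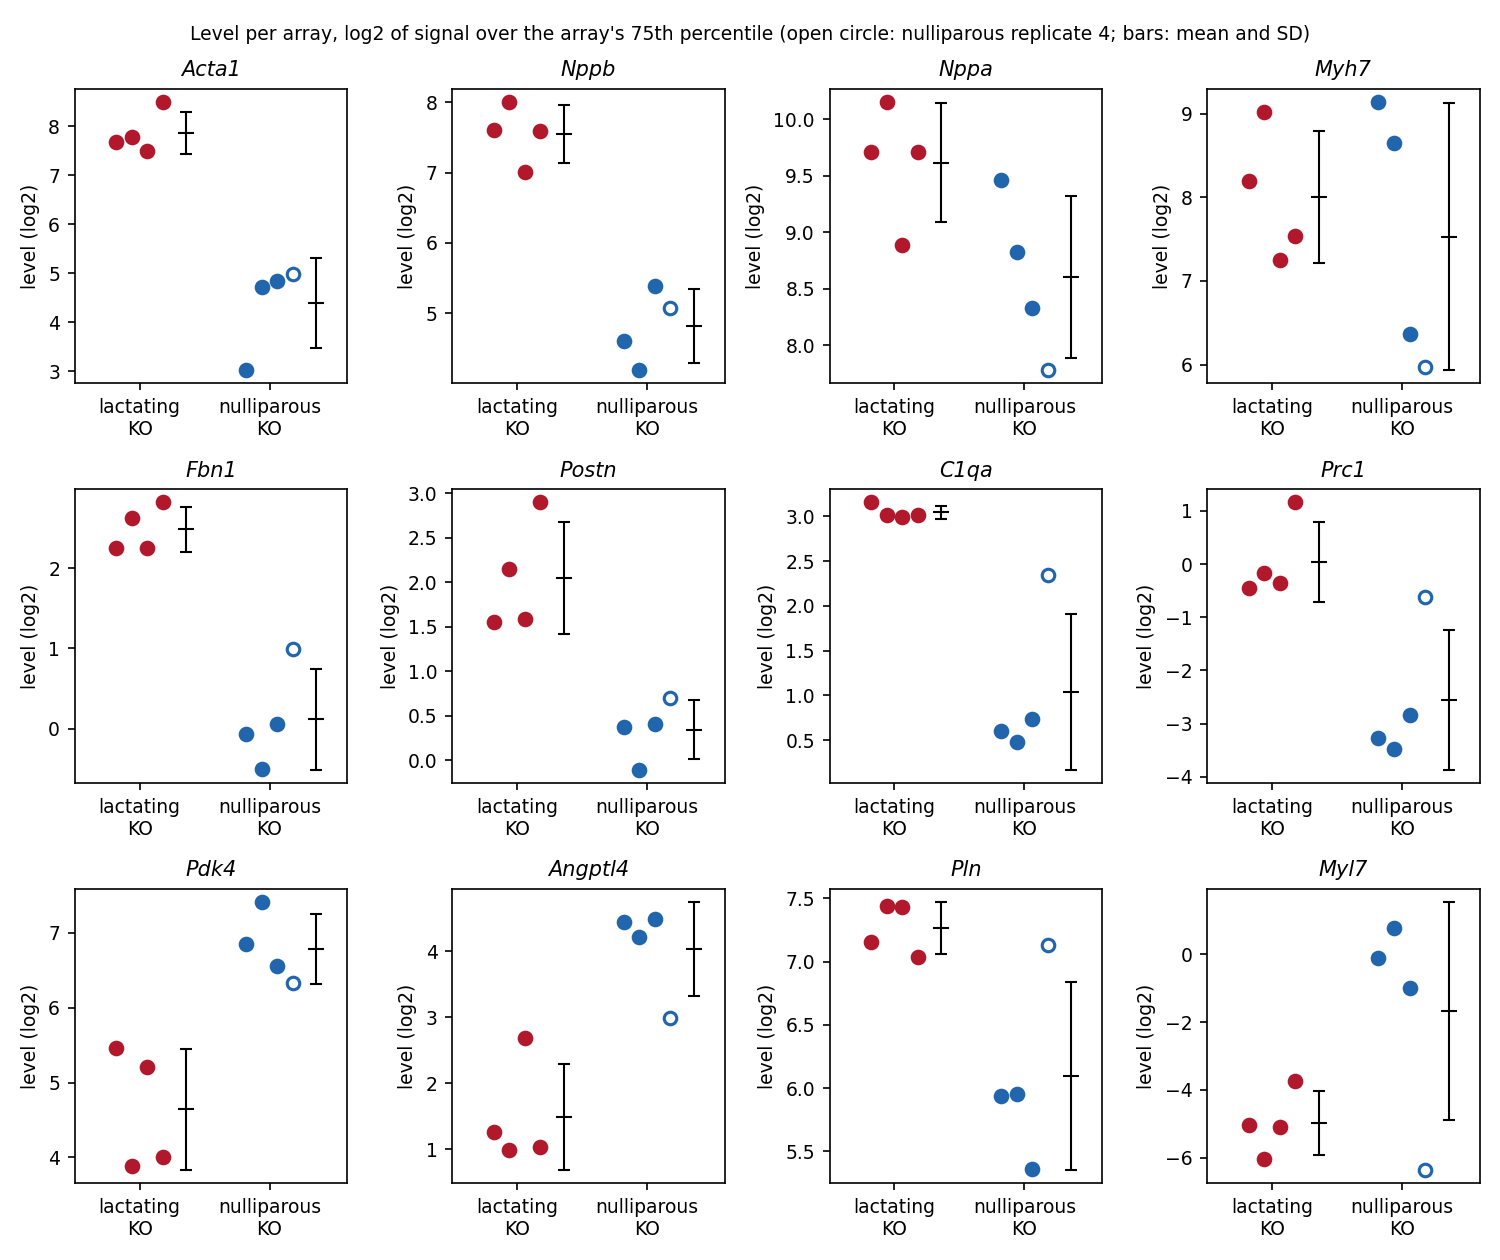
Levels (log2 signal minus the 75th percentile) of named genes on each knockout array, lactating left of nulliparous, with nulliparous replicate 4 as an open circle and bars for the mean and SD of a group. Acta1 and Nppb lie higher on all 4 lactating arrays, at changes of 3.47 and 2.73.

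Signalling by cGMP acts downstream of the missing receptor and of the other guanylyl cyclases. Of 20 measured genes 3 were called higher and 6 lower, a share close to that of all genes, with a median change of -0.15, which was 0.03 with median centring and above 0 with spike-in scaling too. The other receptors gave small differences on the main scale. Npr3, the clearance receptor of the peptides, read 0.46, 0.15, -0.02 and 0.18 on the lactating arrays, against -0.03, -0.23, 0.1 and -0.06 on the nulliparous arrays, and its change of 0.24 ± 0.18 was not called (adjusted p = 0.295). Npr2, the receptor of C-type natriuretic peptide, differed by 0.03 ± 0.07 (adjusted p = 0.71). Corin, the protease of heart muscle that cleaves the atrial peptide's precursor, read 3.36, 3.17, 3.18 and 2.97 on the lactating arrays, against 4.44, 4.45, 3.77 and 3.8 on the nulliparous arrays. The groups did not overlap, and Corin fell by 0.95 on the log2 scale (adjusted p = 0.00214).

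Some regulators of the pathway's output were lower. Rgs2, a brake on Gq signalling that is a target of cGMP-dependent kinase, read 3.97, 3.72, 4.45 and 3.46 on the lactating arrays, against 4.9, 5.26, 5.29 and 5.16 on the nulliparous arrays, a change of -1.25 ± 0.19 (adjusted p = 0.000605). Rgs4, its relative, changed by -0.88 ± 0.25 (adjusted p = 0.0113) at its brightest probe. Its second probe gave -0.15, and the call ended with probes averaged, at -0.52 (adjusted p = 0.0851). Pde3a, a cAMP phosphodiesterase inhibited by cGMP, read 0.22, -0.11, -0.14 and -0.43 on the lactating arrays, against 1.47, 1.66, 1.53 and 0.58 on the nulliparous arrays, a change of -1.42 ± 0.21 (adjusted p = 0.000553). For Rgs2 and Pde3a the lactating arrays all lay below the nulliparous ones. Prkg1, the cGMP-dependent kinase itself, changed by 0.34 ± 0.16 and was not called (adjusted p = 0.0923), though it was at 0.44 without lactating replicate 2 (adjusted p = 0.0496).

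Genes of the extracellular matrix were mostly higher in lactation. Of 16 measured collagens 12 were called higher and 1 lower, with a median change of 0.81, and of 34 elastic-fibre and matricellular genes 24 were called higher and 3 lower, at a median of 0.84 (0.67 with genes below background at their bound). Among the fibrillar collagens, Col1a1 read 4.43, 4.41, 4.25 and 4.75 on the lactating arrays, against 3.15, 2.7, 3.75 and 3.65 on the nulliparous arrays. The groups did not overlap, and the change was 1.15 ± 0.24 (adjusted p = 0.00222). Col3a1 read 5.07, 5.1, 5.08 and 5.55 on the lactating arrays, against 3.97, 3.35, 5.1 and 4.74 on the nulliparous arrays. Nulliparous replicate 3 reached the lactating range, and the change of 0.91 ± 0.36 missed the threshold (adjusted p = 0.0534). It was called at 1.18 without nulliparous replicate 3 (adjusted p = 0.0201) and at 1.06 without replicate 4 (adjusted p = 0.0349).

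Basement membrane and network collagens moved with them. Col4a1, a basement membrane chain, read 4.65, 5.09, 4.66 and 5.21 on the lactating arrays, against 3.08, 2.9, 3.88 and 4.04 on the nulliparous arrays, a change of 1.43 ± 0.28 (adjusted p = 0.00162). Col8a1, a short-chain collagen of vessel walls and scars, changed by 1.48 ± 0.25 (adjusted p = 0.000821). The 1 collagen called lower was Col15a1, which anchors basement membranes, at -1.51, -1.67, -2.06 and -1.54 on the lactating arrays, against -0.34, -0.69, 0.38 and -1.43 on the nulliparous arrays. Its change of -1.17 ± 0.35 (adjusted p = 0.0158) came from the brightest of 3 probes, while the others gave 0.62 and 0.54, so that its direction is uncertain. Without nulliparous replicate 3 it was -0.87 and not called (adjusted p = 0.0532).

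Fbn1, the main protein of the microfibrils that carry elastin, read 2.25, 2.62, 2.25 and 2.82 on the lactating arrays, against -0.07, -0.5, 0.06 and 0.99 on the nulliparous arrays. Nulliparous replicate 4 was the highest of its group and still below every lactating array, and the change was 2.37 ± 0.3 or 5.15-fold (adjusted p = 0.000437). Cilp, a matrix protein of activated cardiac fibroblasts, read 0.59, 1.14, 0.84 and 2.18 on the lactating arrays, against -0.77, -1.37, -0.9 and -0.41 on the nulliparous arrays, a change of 2.05 ± 0.3 (adjusted p = 0.000587). Postn, or periostin, another product of activated fibroblasts, read 1.56, 2.14, 1.59 and 2.9 on the lactating arrays, against 0.38, -0.11, 0.41 and 0.7 on the nulliparous arrays, a change of 1.7 ± 0.28 (adjusted p = 0.000753). In all 3 genes the groups were separate, and lactating replicate 4 was the highest array. Emilin1, an elastic-fibre glycoprotein, changed by 1.09 ± 0.14 (adjusted p = 0.000437). Lox, which cross-links collagen and elastin, was not well above background on any nulliparous array, was at least 1.22-fold higher on the lactating arrays and passed the test (adjusted p = 0.00142). After normexp background correction it was -0.12 and not called. Ccn2, connective tissue growth factor, changed by 0.55 ± 0.2 (adjusted p = 0.0388). Leaving out nulliparous replicate 1, 2 or 3 or lactating replicate 1, 2 or 4 ended that call, at changes of 0.41 to 0.57.

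Matrix turnover genes were mixed. Of 16 measured proteases and inhibitors 6 were called higher and 2 lower, with a median change of -0.07 that was 0.11 with median centring and above 0 with spike-in scaling. Timp1, an inhibitor of matrix metalloproteinases, read 1.24, 1.52, 1.48 and 1.67 on the lactating arrays, against -0.28, -0.72, 0.69 and 0.13 on the nulliparous arrays, a change of 1.52 ± 0.28 (adjusted p = 0.00122). Mmp3, a metalloproteinase that degrades several matrix proteins, read 0.32, 0.32, 0.56 and -0.37 on the lactating arrays, against -2.56, -2.31, -2.15 and -1.38 on the nulliparous arrays, a change of 2.31 ± 0.48 (adjusted p = 0.00223). Both the inhibitor and the protease were thus higher on all lactating arrays.

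Among 22 genes of TGF-beta and BMP signalling 6 were called higher and 3 lower, at a median change of 0.14. Tgfb1, the main fibrogenic ligand, read 1.18, 1.28, 1.18 and 1.2 on the lactating arrays, against 0.79, 0.59, 0.81 and 0.8 on the nulliparous arrays, a small, separated rise of 0.46 ± 0.09 (adjusted p = 0.00137). Fstl3, a secreted antagonist of activin and myostatin, read 1.99, 1.98, 1.83 and 2.08 on the lactating arrays, against 0.59, 0.81, 0.8 and 0.42 on the nulliparous arrays, a change of 1.31 ± 0.17 (adjusted p = 0.000437). Its relative Fst, follistatin, went the other way and was the steepest of the 3 called lower, at -1.57 (adjusted p = 0.00113). Of 11 fibroblast markers 6 were called higher and 5 were not called, and without nulliparous replicate 4 the counts were 6 higher, 2 lower and 3 not called.

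Most genes of mitosis were higher. Of 21 measured genes 19 were called higher and 0 lower, with a median change of 1.83 (1.6 with genes below background at their bound), against 0.061 over all genes. Without nulliparous replicate 4 the count was again 19 and the median 2.36. Many of these transcripts were dim on the nulliparous arrays. Prc1, which bundles microtubules of the central spindle, read -0.45, -0.17, -0.36 and 1.16 on the lactating arrays, against -3.27, -3.48, -2.84 and -0.62 on the nulliparous arrays. Nulliparous replicate 4 lay just below the lowest lactating array and far above the other nulliparous arrays, and lactating replicate 4 was the highest. The change was 2.59 ± 0.57 (adjusted p = 0.00282), and 3.24 without nulliparous replicate 4.

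Ccnb1, cyclin B1, which drives entry into mitosis, read -2.52, -2.67, -2.55 and -1.23 on the lactating arrays, against -6.29, -5.96, -5.12 and -3.02 on the nulliparous arrays. All 4 lactating arrays and 1 nulliparous array were well above background. The change was 2.86 ± 0.61 (adjusted p = 0.00242), and 3.55 without nulliparous replicate 4. It was smaller with probes averaged, at 1.62, and after normexp background correction, at 0.41. Mki67, the Ki-67 antigen of cycling cells, read 0.97, 0.76, 1.15 and 2.26 on the lactating arrays, against -1.78, -1.71, -0.5 and 1.03 on the nulliparous arrays. Here the groups overlapped through replicate 4, at a change of 2.02 ± 0.54 (adjusted p = 0.0086) and 2.61 without it. Tpx2, a spindle assembly factor, changed by 2.51 ± 0.55 (adjusted p = 0.00279), or 3.12 without nulliparous replicate 4. Its second, dimmer probe gave -0.85, and with probes averaged it was not called, at 0.83 (adjusted p = 0.103). Normexp background correction gave 0.62 for Tpx2. Cks2, a subunit of cyclin-dependent kinase complexes, was not well above background on any nulliparous array and was at least 1.31-fold higher on the lactating arrays (adjusted p = 0.00268). After normexp background correction it was -0.03 and not called.

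The promoters of 3 of these genes are shown because CCAAT boxes, the sites of the factor NF-Y, are known in promoters of mitotic genes. Each is the 250 bases before a RefSeq start on GRCm38.p6: Ccnb1 at chr13:100786487-100786736, minus strand, Prc1 at chr7:80294226-80294475, plus strand, which is before the second of its 2 starts, and Cks2 at chr13:51644982-51645231, plus strand. The window before the other Prc1 start, chr7:80294201-80294450, holds CCAAT but no TTTGAA. Capitals mark CCAAT or its reverse complement ATTGG, and TTTGAA or its reverse complement TTCAAA, the core of the cell cycle homology region:
Ccnb1: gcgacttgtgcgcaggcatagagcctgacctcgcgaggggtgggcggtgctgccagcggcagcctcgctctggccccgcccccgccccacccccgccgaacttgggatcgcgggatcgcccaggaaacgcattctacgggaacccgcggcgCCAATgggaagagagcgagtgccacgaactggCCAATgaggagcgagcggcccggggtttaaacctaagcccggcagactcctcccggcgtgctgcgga
Prc1: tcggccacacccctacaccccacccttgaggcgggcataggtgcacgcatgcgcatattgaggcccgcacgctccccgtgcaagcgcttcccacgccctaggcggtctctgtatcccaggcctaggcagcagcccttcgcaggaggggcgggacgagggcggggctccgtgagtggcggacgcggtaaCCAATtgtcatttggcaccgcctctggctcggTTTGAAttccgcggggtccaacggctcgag
Cks2: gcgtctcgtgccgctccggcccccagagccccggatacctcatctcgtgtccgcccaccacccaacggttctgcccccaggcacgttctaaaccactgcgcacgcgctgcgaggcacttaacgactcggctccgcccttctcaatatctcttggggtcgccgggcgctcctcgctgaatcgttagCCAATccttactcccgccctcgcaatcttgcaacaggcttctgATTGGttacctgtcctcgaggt
On either strand, CCAAT was present in 84.2% of 19 windows of the mitosis genes, belonging to 15 of the 18 genes with a window, against 33.8% of 32851 windows. TTTGAA was present in 36.8% of the 19 windows, belonging to 7 of the 18 genes, against 16% of all windows. Windows of 1 gene can overlap, and these shares describe letters, not binding.

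DNA replication genes moved in both directions. Of 26 measured genes 7 were called higher and 2 lower, at a median change of 0.2, and without nulliparous replicate 4 the counts were 12 and 2. Gins2, a subunit of the replicative helicase, read -2.68, -2.97, -2.13 and -1.91 on the lactating arrays, against -4.1, -4.79, -4.33 and -2.64 on the nulliparous arrays, a change of 1.54 ± 0.36 (adjusted p = 0.00412). Nulliparous replicate 4 stood within the lactating range. Normexp background correction gave 0.28 for Gins2. Mcm7, another helicase subunit, was lower by -0.33 ± 0.09 (adjusted p = 0.00826), with no overlap, but changed by 0.52 with spike-in scaling and was not called with median centring, at -0.15 (adjusted p = 0.203).

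Most macrophage genes were higher. Of 28 measured genes 19 were called higher, 9 were not called and 0 were lower, with a median change of 1.15, and of 10 macrophage markers 9 were called higher and 0 lower. In bulk ventricle, more cells of a type and more RNA per cell cannot be told apart. C1qa, a chain of complement C1q that tissue macrophages make, read 3.16, 3.02, 2.99 and 3.02 on the lactating arrays, against 0.6, 0.49, 0.74 and 2.34 on the nulliparous arrays. The lactating arrays lay within a narrow band, nulliparous replicates 1 to 3 were far below it and replicate 4 was close beneath it. The change was 2.01 ± 0.29 (adjusted p = 0.000531). Lyz2, the lysozyme of macrophages and neutrophils, read 0.62, 0.84, 0.88 and 0.74 on the lactating arrays, against -2.3, -2.32, -2.24 and -0.03 on the nulliparous arrays, a change of 2.49 ± 0.38 or 5.62-fold (adjusted p = 0.000615).

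Adgre1, the F4/80 antigen of mouse macrophages, read 0.44, 0.17, 0.26 and 0.32 on the lactating arrays, against -1.35, -1.46, -1.22 and -0.16 on the nulliparous arrays, a change of 1.34 ± 0.23 (adjusted p = 0.000919). C1qb, the partner chain of C1qa, changed by 1.79 ± 0.26 (adjusted p = 0.000537), and F13a1, the A subunit of coagulation factor XIII found in resident macrophages, by 1.05 ± 0.14 (adjusted p = 0.000467). In each of these genes nulliparous replicate 4 lay between the groups. Ccr2, the receptor of recruited monocytes, read -2.91, -3.5, -2.3 and -1.94 on the lactating arrays, against -2.76, -3.03, -2.73 and -3.3 on the nulliparous arrays. These overlapped, and the change of 0.29 ± 0.5 was not called (adjusted p = 0.659). Of the 7 lymphocyte markers measured none was called, at a median change of -0.17 that was 0.69 with spike-in scaling, and of 4 neutrophil markers 1 was called lower.

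Chemokines and cytokines were mostly higher, with 13 of 24 called higher and 1 lower at a median change of 0.63, and 12 and 3 without nulliparous replicate 4. Ccl6, a monocyte chemoattractant of mice, read 3.02, 2.78, 3.12 and 2.74 on the lactating arrays, against 0.41, 0.29, 0.78 and 2.23 on the nulliparous arrays, a change of 1.99 ± 0.32 (adjusted p = 0.000742). Ccl12 and Ccl8, ligands of monocyte chemokine receptors, changed by 2.11 ± 0.5 (adjusted p = 0.00423) and 1.83 ± 0.34 (adjusted p = 0.0013). The 1 gene called lower was Lif, a cytokine that acts through gp130 on heart muscle, at -4.28, -3.7, -4.63 and -4.74 on the lactating arrays, against -1.44, -2.61, -1.24 and -3.06 on the nulliparous arrays. Its change was -2.25 ± 0.39 (adjusted p = 0.00103), and only 1 lactating array was well above background. Il6, from the same family, was well above background on 1 lactating and 0 nulliparous arrays and was not tested.

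Interferon and antigen presentation genes gave 10 of 25 called higher and 0 lower, at a median change of 0.51. Ifi27l2a, an interferon-induced mitochondrial protein, read 5.2, 5.82, 5.05 and 5.22 on the lactating arrays, against 3.36, 3.37, 4.73 and 4.11 on the nulliparous arrays, a change of 1.43 ± 0.27 (adjusted p = 0.00133). B2m, the light chain of class I antigen complexes, read 5.92, 5.69, 5.59 and 5.51 on the lactating arrays, against 4.27, 4.07, 4.32 and 5.42 on the nulliparous arrays, a change of 1.16 ± 0.26 (adjusted p = 0.00344). For both genes all lactating arrays exceeded all nulliparous ones, with nulliparous replicate 4 just below them for B2m. Irf7, the transcription factor of the interferon response, changed by 1.07 ± 0.18 (adjusted p = 0.000767) and Cd74, the class II invariant chain, by 1.01 ± 0.24 (adjusted p = 0.00459).

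**Figure D3:**
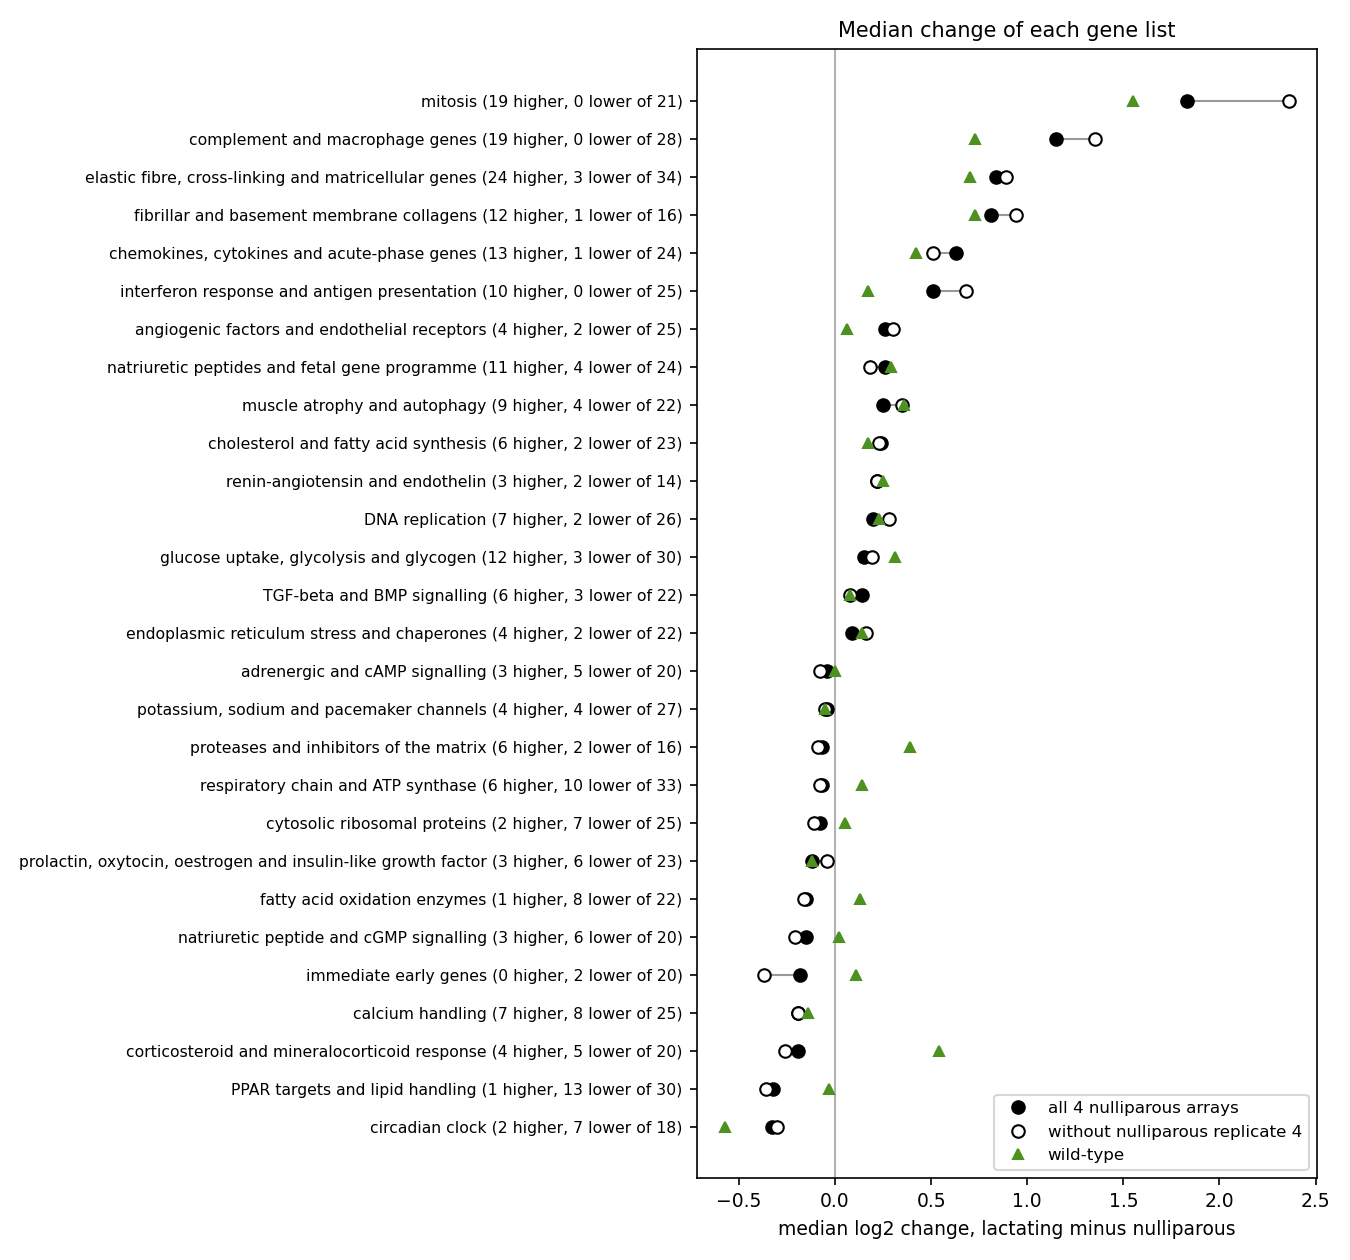
Median change (log2, lactating minus nulliparous) of each pathway gene list in the knockout, with (filled circle) and without (open circle) nulliparous replicate 4 and in wild type (triangle), with the numbers of measured members called higher and lower in the knockout. Mitosis (median 1.83), macrophage genes (1.15), elastic-fibre and matricellular genes (0.84) and collagens (0.81) lie farthest above the median of all genes, 0.061.

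Lipid-handling genes and targets of PPAR, the nuclear receptors that turn on fat use, were called lower more often than higher on the main scale. Of 30 measured genes 1 was called higher, 13 lower and 16 neither, with a median change of -0.32. Without nulliparous replicate 4 the counts were 1 higher and 15 lower. With spike-in scaling 18 were called higher and 4 lower, at a median of 0.53. Pdk4, a kinase that holds back glucose oxidation, read 5.47, 3.89, 5.21 and 4.01 on the lactating arrays, against 6.86, 7.41, 6.55 and 6.33 on the nulliparous arrays. Every lactating array was lower, and the change was -2.14 ± 0.46 or 4.41-fold lower (adjusted p = 0.00264). Angptl4, an inhibitor of lipoprotein lipase, read 1.26, 0.99, 2.68 and 1.03 on the lactating arrays, against 4.44, 4.22, 4.49 and 2.99 on the nulliparous arrays, a change of -2.54 ± 0.4 (adjusted p = 0.000649). Ppargc1a, a coactivator of mitochondrial genes, read 4.16, 4.4, 3.87 and 3.76 on the lactating arrays, against 5.63, 5.3, 5.08 and 4.84 on the nulliparous arrays, a change of -1.17 ± 0.19 (adjusted p = 0.00067). The groups were separate for Angptl4 and Ppargc1a too, with lactating replicate 3 the highest of its group for Angptl4.

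Cidec, a lipid-droplet protein of fat cells, was not well above background on any lactating array and was at least 2.01-fold lower there than on the nulliparous arrays, of which 3 were above background (adjusted p = 0.000437). Of 7 white adipocyte markers 3 were called lower and 0 higher, and of 5 brown adipocyte markers 3 were called lower and 1 higher. The part of adipose tissue on the heart in the falls of Cidec and the other lipid genes was not tested.

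Of 22 genes of fatty acid oxidation 1 was called higher and 8 lower (3 and 8 without nulliparous replicate 4), at a median of -0.15 that was 0.7 with spike-in scaling and 0.03 with median centring. Acadvl, the first dehydrogenase of long-chain oxidation, read 8.57, 8.49, 8.58 and 8.48 on the lactating arrays, against 9.15, 9.15, 9.13 and 8.78 on the nulliparous arrays, a change of -0.52 ± 0.09 (adjusted p = 0.000739). Decr1, which prepares unsaturated fatty acids for oxidation, changed by -0.61 ± 0.09 (adjusted p = 0.000645) at its brightest probe and by 0.34 at its second. Both falls were under 2-fold, and both turned upward with spike-in scaling, at 0.33 for Acadvl (adjusted p = 0.0643) and 0.25 for Decr1 (adjusted p = 0.173). With probes averaged Decr1 was not called, at -0.13 (adjusted p = 0.317).

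Glycolysis and glycogen genes gave 12 of 30 called higher and 3 lower (13 and 5 without nulliparous replicate 4), at a median change of 0.15. Pgk1, a glycolytic kinase, read 7.02, 7.04, 6.98 and 6.95 on the lactating arrays, against 5.97, 6.02, 5.52 and 6.77 on the nulliparous arrays, a change of 0.92 ± 0.18 (adjusted p = 0.00167). Ugp2, which makes the sugar donor of glycogen synthesis, read 5.34, 5.21, 5.2 and 5.27 on the lactating arrays, against 4.02, 4.28, 3.96 and 4.91 on the nulliparous arrays, a change of 0.96 ± 0.16 (adjusted p = 0.000745). On both genes nulliparous replicate 4 lay near, but below, the lactating arrays. Respiratory chain genes split, with 6 of 33 called higher and 10 lower, and 9 and 12 without nulliparous replicate 4. Their median change was -0.07, and 0.79 with spike-in scaling, 0.06 with quantile normalization and 0.11 with median centring. Ndufa10, a complex I subunit, was higher by 0.78 ± 0.18 (adjusted p = 0.00358).

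Among 23 genes of cholesterol and fatty acid synthesis 6 were called higher and 2 lower. Scd2, a stearoyl-CoA desaturase, read 2.45, 2.82, 2.42 and 2.77 on the lactating arrays, against 1.39, 1.11, 1.1 and 1.54 on the nulliparous arrays, a change of 1.33 ± 0.12 (adjusted p = 0.000363). Its paralog Scd1 changed by 1.1 ± 0.15 (adjusted p = 0.000471). The groups did not overlap for either desaturase. Acacb, the mitochondrial acetyl-CoA carboxylase that limits fat import, was called lower at -0.73 but was 0.13 with spike-in scaling (adjusted p = 0.446). Acaca, the cytosolic enzyme of fat synthesis, was called higher at 0.51, but not with probes averaged, at 0.06 (adjusted p = 0.721).

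Calcium handling and ion channel genes moved in both directions. Of 25 calcium handling genes 7 were called higher and 8 lower, and of 27 channel genes 4 and 4 (4 and 6 without nulliparous replicate 4). Pln, phospholamban, the brake on the calcium pump of the sarcoplasmic reticulum, read 7.15, 7.44, 7.43 and 7.04 on the lactating arrays, against 5.94, 5.96, 5.36 and 7.13 on the nulliparous arrays. Nulliparous replicate 4 stood within the lactating range, and the change was 1.17 ± 0.26 (adjusted p = 0.00342). Itpr2, the main inositol trisphosphate receptor of heart muscle, read 3.1, 2.71, 3.19 and 3.19 on the lactating arrays, against 4.74, 4.83, 4.14 and 3.88 on the nulliparous arrays, a change of -1.35 ± 0.19 (adjusted p = 0.000495) with no overlap. The pump itself, Atp2a2, changed by 0.25 ± 0.12 and was not called (adjusted p = 0.113), but was called without nulliparous replicate 4 at 0.4 (adjusted p = 0.0011), while its second probe gave -0.30.

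Kcnip2, an accessory subunit of the channels of the transient outward potassium current, read 1.18, 1.43, 1.67 and 1.49 on the lactating arrays, against 0.09, 0.15, 0.08 and 1.49 on the nulliparous arrays, a change of 0.99 ± 0.26 (adjusted p = 0.00722). Nulliparous replicate 4 sat among the lactating arrays for Kcnip2. Abcc9, the sulfonylurea receptor of the ATP-sensitive potassium channel, fell, reading 5.19, 4.72, 5.02 and 4.86 on the lactating arrays, against 6.2, 6.21, 6.28 and 5.52 on the nulliparous arrays, a change of -1.11 ± 0.15 (adjusted p = 0.000471).

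Hormone and vasoactive pathways were near the background. Of 14 renin-angiotensin and endothelin genes 3 were called higher and 2 lower, of 20 corticosteroid-response genes 4 and 5, and of 23 genes of prolactin, oxytocin, oestrogen and insulin-like growth factor 3 and 6. Mas1, the receptor of angiotensin 1-7, read -2.27, -2.42, -1.51 and -2.51 on the lactating arrays, against -1.01, -0.54, -0.3 and -0.6 on the nulliparous arrays, a change of -1.57 ± 0.22 (adjusted p = 0.000524). Ace, which makes angiotensin II, read 0.28, 0.26, 0.16 and 0.64 on the lactating arrays, against -0.36, -0.67, -0.77 and -0.44 on the nulliparous arrays, a change of 0.89 ± 0.13 (adjusted p = 0.000589). The groups were separate for both, in opposite directions. Nr3c2, the mineralocorticoid receptor, changed by -0.62 ± 0.29 and was not called (adjusted p = 0.0977), but was called at -0.78 without nulliparous replicate 4 (adjusted p = 0.0479) and at -0.96 without lactating replicate 2 (adjusted p = 0.00657). Esr2, estrogen receptor beta, fell by 0.9 on the log2 scale (adjusted p = 0.000589).

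Circadian genes were lower more often than higher, with 7 of 18 called lower and 2 higher at a median of -0.33, which was 0.53 with spike-in scaling. Hlf, an output factor of the clock, read 2.49, 1.19, 2.21 and 2.24 on the lactating arrays, against 3.8, 3.31, 3.54 and 3.08 on the nulliparous arrays, a change of -1.4 ± 0.35 (adjusted p = 0.00579). Arntl, the clock activator BMAL1, read -1.24, 0.95, -1.24 and -1.01 on the lactating arrays, against -3.79, -3.09, -1.94 and -2.94 on the nulliparous arrays. Lactating replicate 2 stood above its group, and the change of 2.31 ± 0.81 (adjusted p = 0.0326) was not called without it, at 1.78 (adjusted p = 0.103), or without nulliparous replicate 1 or 2. Per3, a repressor of the clock, changed by -1.36 ± 0.49 (adjusted p = 0.0363). Leaving out any one of replicates 1 to 3 in either group ended that call, at changes of -1.42 to -1.14. The sources used here do not give the hour at which hearts were taken, and its part in these changes was not tested.

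Per1, another repressor, read 4.39, 4.18, 4.14 and 4.29 on the lactating arrays, against 5.02, 5.23, 5.3 and 4.9 on the nulliparous arrays, a separated change of -0.86 ± 0.22 (adjusted p = 0.00636). Its promoter is shown because E-boxes, the sites of the clock activators, are a known feature of Per genes. RefSeq gives the gene 2 starts, and the window shown is the 250 bases before the first on GRCm38.p6, chr11:69098699-69098948, plus strand. The window before the other start, chr11:69099902-69100151, holds no CACGTG. Capitals mark the E-box CACGTG, which reads the same on both strands:
Per1: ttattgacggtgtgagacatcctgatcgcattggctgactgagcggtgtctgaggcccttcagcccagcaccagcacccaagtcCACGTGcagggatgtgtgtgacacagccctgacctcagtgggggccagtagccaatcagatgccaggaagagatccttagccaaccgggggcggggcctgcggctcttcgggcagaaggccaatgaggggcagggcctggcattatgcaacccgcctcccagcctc
CACGTG was present in 21.7% of 23 windows of the circadian genes, belonging to 4 of the 15 genes with a window, against 6.02% of 32851 windows. The windows of Arntl and Hlf hold no CACGTG.

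Of 25 angiogenic factors and endothelial receptors 4 were called higher and 2 lower. Apln, apelin, a vasodilator and inotropic peptide, read 1.24, 1.57, 1.47 and 1.56 on the lactating arrays, against -1.45, -1.04, -0.23 and 1.24 on the nulliparous arrays. Nulliparous replicate 4 lay at the lower edge of the lactating range, and the change was 1.83 ± 0.5 (adjusted p = 0.00986). Adm, adrenomedullin, a vasodilator peptide, changed by 0.97 ± 0.17 (adjusted p = 0.000879).

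Among the largest rises outside these groups, Aqp8, a water channel also permeable to hydrogen peroxide, read 2.9, 2.35, 1.77 and 1.89 on the lactating arrays, against -0.98, -0.07, 0.06 and 0.23 on the nulliparous arrays. The change was 2.41 ± 0.29 or 5.33-fold (adjusted p = 0.000437), with no overlap. Tfrc, the transferrin receptor through which cells take up iron, read 2.35, 2.5, 1.91 and 1.53 on the lactating arrays, against -0.87, -0.94, -0.32 and 1.14 on the nulliparous arrays, a change of 2.32 ± 0.44 (adjusted p = 0.00145). Its other probes gave 0.57 and 1.34. Red cell transcripts were higher on the same arrays, with 5 of 7 markers called higher and 0 lower, and Hbb-b1, a beta-globin, at 1.55 ± 0.19 (adjusted p = 0.000437). Their part in the change of Tfrc was not tested.

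Of the 10 steepest falls, Sfrp5, a secreted inhibitor of Wnt signalling, read -2.76, -3.45, -2.16 and -2.42 on the lactating arrays, against 0.09, 0.9, -0.27 and -0.4 on the nulliparous arrays, a change of -2.78 ± 0.29 or 6.85-fold lower (adjusted p = 0.000437). Most of the other falls shared 1 profile. Cd300lf, an inhibitory receptor of myeloid cells, read 2.58, 2.74, 1.85 and 2.27 on the lactating arrays, against 5.73, 5.48, 6.05 and 3.71 on the nulliparous arrays, a change of -2.88 ± 0.38 (adjusted p = 0.000437). Klra1, a natural killer cell receptor, read 1.94, 2.28, 1.08 and 1.58 on the lactating arrays, against 4.89, 4.62, 5.18 and 3.1 on the nulliparous arrays, a change of -2.73 ± 0.37 (adjusted p = 0.000471). Both fell on every lactating array. Tdgf1, a co-receptor of Nodal active in early embryos, changed by -2.67, Ddx25, a helicase of the testis, by -2.67, and Rabgap1, a Rab GTPase-activating protein, by -2.63. Mrgprg, an orphan receptor of the Mas-related family, changed by -2.63 and Scn3b, a sodium channel subunit, by -2.56.

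These 7 genes ranked the 8 arrays in the same complete order, an order held by 35 of the 14060 genes tested (0.249%). This is a description, since the genes were chosen as falls without overlap. Of the 7, Klra1, Ddx25, Mrgprg and Scn3b have 1 probe each. The other 2 probes of Cd300lf gave 1.17 and 1.75 and their average with the first was 0.01, those of Rabgap1 gave -0.99 and 1.17, and those of Tdgf1 were not above background. Zfhx2, a transcription factor also among the 10, changed by -2.69 ± 0.39 (adjusted p = 0.000543) at its brightest probe and by 0.39 at its second. These values describe single probes, and whether each reads its named transcript was not tested.

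Some markers of atrial muscle and nerve were lower in lactating ventricles and also differed among the nulliparous arrays. Sln, sarcolipin, a regulator of the calcium pump found in atria, read -4.86, -3.87, -5.65 and -2.54 on the lactating arrays, against 0.18, 1.14, 0.38 and -3.97 on the nulliparous arrays. Nulliparous replicate 4 lay with the lactating arrays, and the change of -3.67 ± 1.02 (adjusted p = 0.0103) was -4.80 without it. Myl7, the atrial regulatory light chain, read -5.04, -6.05, -5.11 and -3.73 on the lactating arrays, against -0.11, 0.78, -0.99 and -6.36 on the nulliparous arrays. Its change of -3.31 ± 1.13 (adjusted p = 0.0285) was -4.87 without nulliparous replicate 4, and the call ended without any one of nulliparous replicates 1 to 3 or lactating replicates 1 to 3, with changes down to -2.49. Both genes were dim on the lactating arrays. After normexp background correction the changes were smaller, at -2.06 for Sln and -1.68 for Myl7. Myl4, the atrial essential light chain, changed by -1.51 ± 0.42 (adjusted p = 0.0103). Of 9 atrial markers 1 was called higher and 3 lower, while of 6 ventricular markers 0 were called higher and 2 lower.

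The summed linear level of 9 Schwann cell and neuron markers ranged from 135 to 221 on the lactating arrays, against 443 to 657 on nulliparous replicates 1 to 3 and 202 on replicate 4. The 9 markers split, with 3 called higher and 4 lower. The sources used here do not say how much atrial or nerve tissue each dissection held, and its part in the other results was not tested.

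Nulliparous replicate 4 was not equally placed for all genes. For the 1729 genes called at 2-fold or more without it, its position on the way from the mean of nulliparous replicates 1 to 3, at 0, to the lactating mean, at 1, had a median of 0.724 and an interquartile range of 0.542 to 0.862. The genes were chosen with these arrays, so that the position is a description. The median position was 0.759 for the 1083 genes that were higher and 0.665 for the 646 that were lower. By gene list, over members called without it at a change of at least 0.5, it was low for renin-angiotensin and endothelin genes (0.21), circadian genes (0.31), the fetal programme (0.35), elastic-fibre and matricellular genes (0.37) and collagens (0.46). Matrix proteases and inhibitors (0.38), PPAR targets (0.42) and TGF-beta and BMP genes (0.46) were as low. Macrophage (0.72) and mitosis genes (0.80) were near the 0.759 of the 1083 higher genes, though those were chosen at 2-fold or more. Fatty acid oxidation (0.79) and adrenergic genes (0.81) lay near that value too. The position was higher for muscle atrophy and autophagy (0.86), respiratory chain (0.95) and DNA replication genes (1.08). The lists hold few such members, and their positions were not tested against each other. On the matrix, clock and fetal-programme genes, as on PPAR targets and TGF-beta genes, the mouse sat nearer to its own group. On the cell-cycle genes it sat nearer to the lactating group, as on the median of the 1729 genes.

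**Figure D4:**
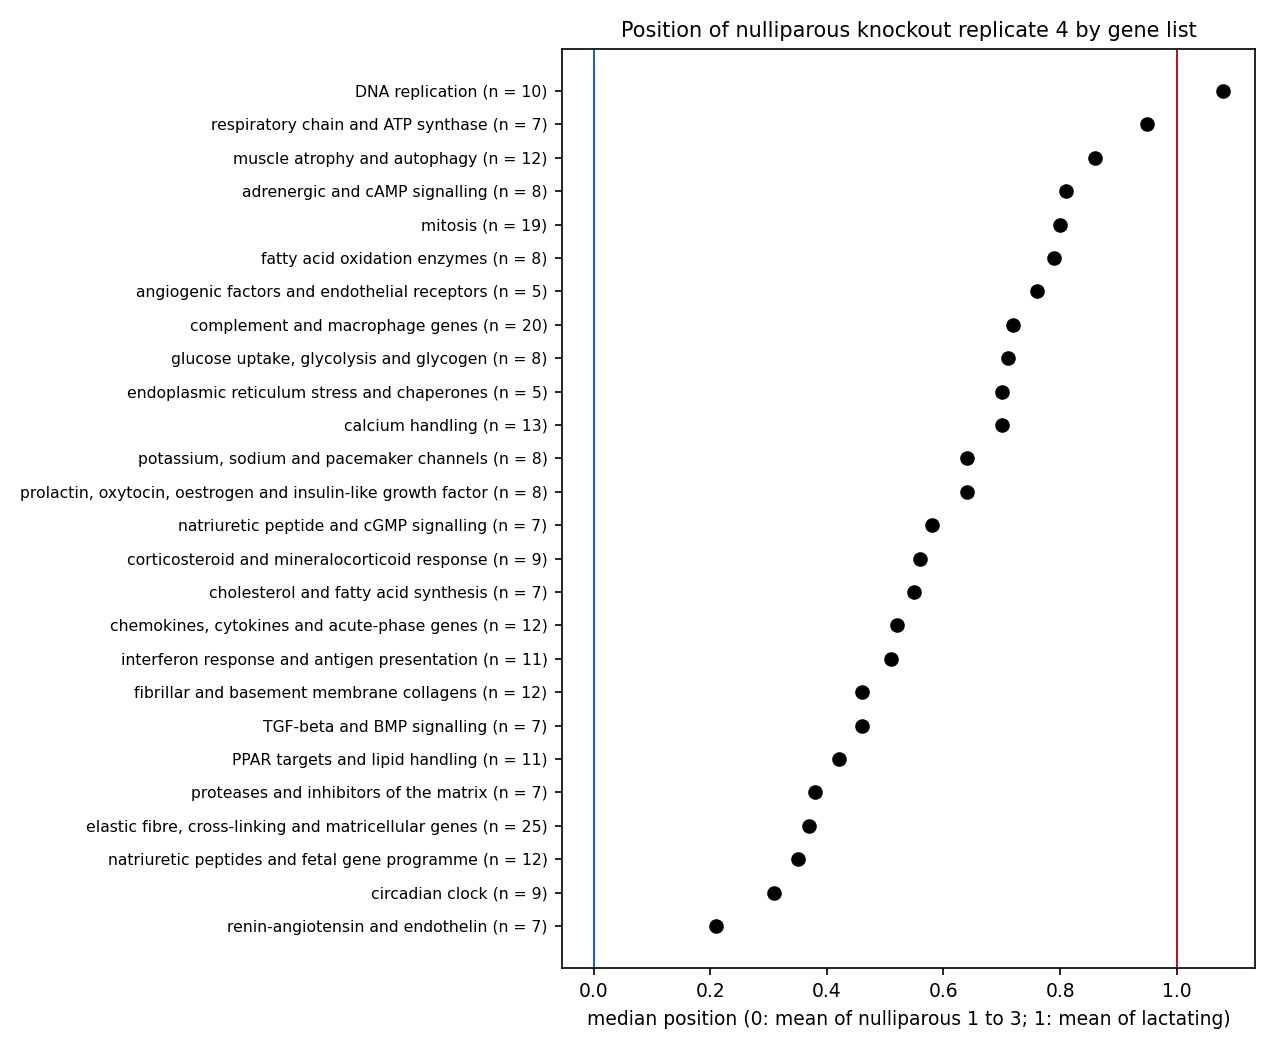
Position of nulliparous knockout replicate 4 between the mean of nulliparous replicates 1 to 3 (0) and the lactating mean (1), by gene list, for lists with at least 5 members called without it at a change of 0.5 or more in size. Its position runs from 0.21 for renin-angiotensin genes to 1.08 for DNA replication genes.

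Genes called only without replicate 4 were chosen through that array, so that their levels on it are a description. Klhl32, a substrate adaptor of ubiquitin ligases, read 1.56, 1.37, 1.58 and 0.22 on the lactating arrays, against -1.95, -1.94, 0.7 and 1.72 on the nulliparous arrays, where replicates 3 and 4 stood above replicates 1 and 2. Its change was 1.55 ± 0.8 with all arrays (adjusted p = 0.126) and 2.25 without nulliparous replicate 4 (adjusted p = 0.0208). Cyfip2, a regulator of actin assembly, read 3.97, 4.61, 4.76 and 4.45 on the lactating arrays, against 1.37, 1.35, 4.37 and 4.47 on the nulliparous arrays, and had the same split of nulliparous replicates. It was called at 2.09 without replicate 4 (adjusted p = 0.00856) and at 2.05 without replicate 3 (adjusted p = 0.0179), against 1.56 with all arrays (adjusted p = 0.0542). Glrx, glutaredoxin, which reverses glutathione binding to proteins, changed by 1.25 ± 0.53 with all arrays (adjusted p = 0.07) and 1.77 without replicate 4 (adjusted p = 0.00572). Fmr1nb, Klk1b26 and Wfikkn1 changed by -1.34, 1.51 and -1.11 with all arrays, and by -2.18, 1.94 and -1.56 without it.

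The same comparison in wild-type ventricles asks whether the knockout response to lactation differs. In wild type 4466 genes (31.8%) were called higher and 2604 (18.5%) lower in lactation, 50.3% of the genes tested. Of the genes called in either genotype, 5020 were called in both with the same sign, which is 80.9% of the knockout calls and 71% of the wild-type calls, and 11 were called with opposite signs. The mean levels of the genotypes come from separate arrays, but limma's fit pooled the variance of a gene over all arrays. Both changes of a gene thus have the same standard error, so that the calls in this count are not independent between genotypes. Over all genes tested the changes correlated at r = 0.833, a description across genes, which are not independent replicates.

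The difference of the changes, knockout minus wild type, was called for 13 of 14060 genes (0.0925%), with 3 higher (0.0213%) and 10 lower (0.0711%), and 897 genes had an unadjusted p under 0.05. Without nulliparous knockout replicate 4 it was called for 20 genes (0.142%), of which 5 were higher (0.0356%), and all 13 were among them. For the members named above the difference was called only for Cidec. Acta1 changed by 2.99 in wild type (difference 0.48, adjusted p = 0.914) and Nppb by 3.74 (difference -1.01, adjusted p = 0.805). Fbn1 changed by 2.36 in wild type and C1qa by 2.0, against 2.37 and 2.01 in the knockout. Mybpc2 changed by 0.16 in wild type, where it was not called (difference 0.91, adjusted p = 0.647). Ccn2 changed by 1.91 in wild type (difference -1.36, adjusted p = 0.198), and Pdk4 by -0.47 (difference -1.67, adjusted p = 0.703). The standard error of the difference was 0.6 for Acta1 and 0.65 for Pdk4, so that differences of that size could not be resolved.

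Group by group, mitosis genes were called higher for 19 of 21 members in either genotype, at a median of 1.83 in the knockout and 1.55 in wild type. Macrophage genes were called higher for 19 of 28 in the knockout and 18 in wild type, at medians of 1.15 and 0.73. Interferon and antigen presentation genes were called higher for 10 of 25 in the knockout and 3 in wild type, at medians of 0.51 and 0.17. Fatty acid oxidation genes were called higher for 1 and lower for 8 of 22 in the knockout, against 7 and 6 in wild type, and respiratory chain genes for 6 and 10 of 33, against 14 and 1. These counts were not tested against each other, and the medians of the fuel groups change sign with the scaling. Ifi27l2a changed by 0.73 in wild type (difference 0.7, adjusted p = 0.804), Cd74 by 0.2 (difference 0.81, adjusted p = 0.717) and Acadvl by -0.3 (difference -0.23, adjusted p = 0.799).

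**Figure D5:**
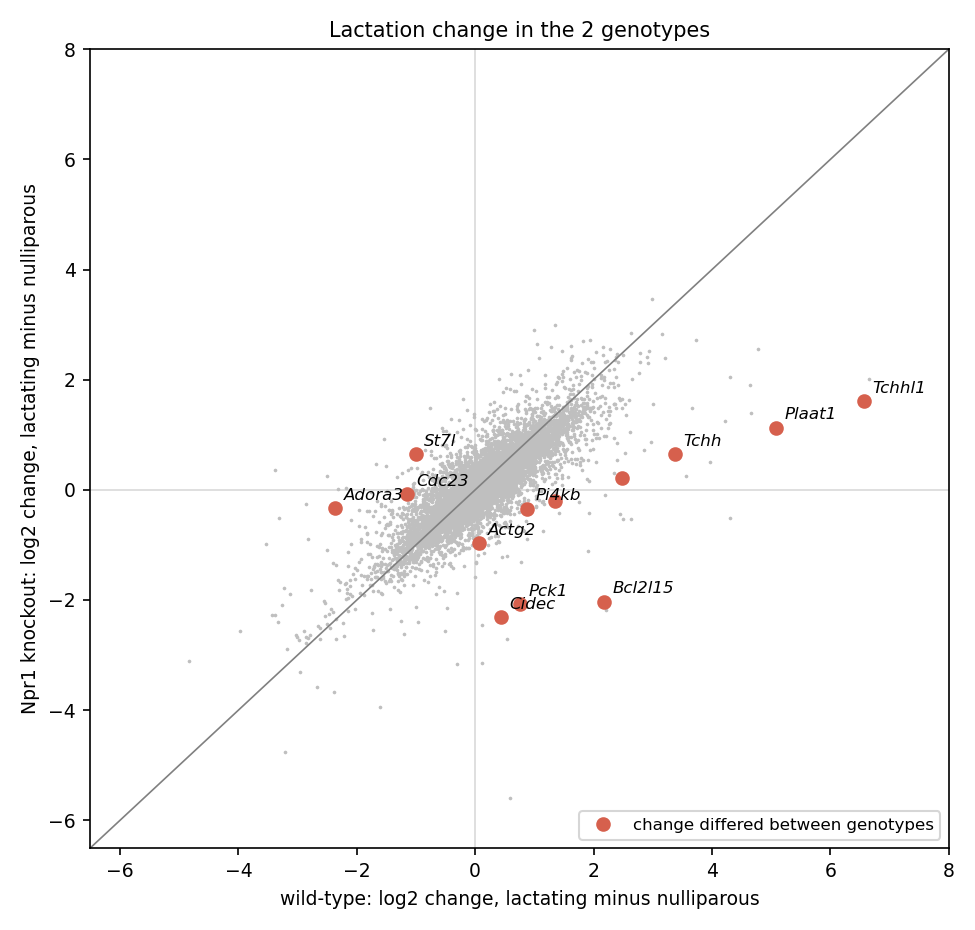
Changes with lactation in knockout (vertical axis) and wild-type (horizontal axis) ventricles, log2 scale, one point per tested gene, with the 13 genes whose difference was called marked. Most genes lie along the diagonal (r = 0.833 over genes), and Tchhl1, not above background in nulliparous wild type, is drawn at measured values of 1.61 in the knockout and 6.56 in wild type.

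Of the 13 genes 6 (46.2%) lie on chromosome 3, which carries Npr1, against 670 of all tested genes (4.77%). Tchhl1, a trichohyalin-like protein of the epidermal gene cluster, read 0.69, 0.71, -0.12 and -0.09 on the lactating knockout arrays, against -1.23, -0.63, -2.07 and -1.3 on the nulliparous knockout arrays. In wild type it read 1.12, 0.39, 1.06 and 0.4 on the lactating arrays, against -6.13, -5.93, -5.54 and -5.69 on the nulliparous arrays, none of which was well above background. Lactating levels thus overlapped between genotypes, while the nulliparous levels did not, and the change was 1.61 in the knockout and at least 4.65 in wild type, a difference of -3.04 or beyond (adjusted p = 8.33e-05, on measured values that differ by -4.96). Its neighbour in that family, Tchh, trichohyalin, read -1.47, -1.15, -1.67 and -1.59 on the lactating knockout arrays, against -1.75, -1.66, -2.54 and -2.52 on the nulliparous ones. Among wild-type arrays it read -1.19, -1.31, -1.56 and -1.47 in lactation, against -4.2, -4.85, -5.53 and -4.44 in nulliparous mice. None of the nulliparous wild-type arrays was well above background, so that the change there was at least 2.51 and the difference -1.86 or beyond (adjusted p = 0.00931), again with higher nulliparous levels in the knockout.

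Pi4kb, a phosphatidylinositol kinase of the Golgi, changed by -0.34 in the knockout and 0.88 in wild type (difference -1.22, adjusted p = 0.00169). St7l changed by 0.65 and -1.0 in the same order (difference 1.65, adjusted p = 0.0024). Adora3, the adenosine A3 receptor, changed by -0.33 and -2.36 (difference 2.03, adjusted p = 0.0161), and its knockout change was called at -0.53 without lactating replicate 2 (adjusted p = 0.0491). Bcl2l15, a relative of Bcl2, singled out as the last of the 6 after its values were seen, changed by -2.03 and 2.18 (difference -4.21, adjusted p = 0.0309), with 1 nulliparous wild-type array well above background. On chromosome 3 the deletion and other differences between the mouse lines cannot be told apart.

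Among the genes on other chromosomes, Plaat1, a phospholipase and acyltransferase, read 2.71, 2.7, 2.65 and 2.6 on the lactating knockout arrays, against 0.82, 0.8, 2.14 and 2.37 on the nulliparous knockout arrays. In wild type it read 2.44, 2.55, 2.56 and 2.3 during lactation, against -2.4, -2.47, -3.34 and -2.29 without pregnancy. The lactating groups were close and the nulliparous knockout arrays lay above the wild-type ones, at a difference of -3.96 (adjusted p = 0.00169). Actg2, the gamma actin of smooth muscle, fell in the knockout by 0.97 on the log2 scale and changed by 0.07 in wild type (difference -1.04, adjusted p = 0.0137). Cdc23, a subunit of the anaphase-promoting complex, changed by -0.08 in the knockout and -1.14 in wild type (difference 1.07, adjusted p = 0.0161).

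Cidec read -5.72, -6.06, -5.1 and -6.28 on the lactating knockout arrays, against -3.22, -3.06, -4.19 and -3.43 on the nulliparous ones. Among wild-type arrays it read -1.26, -0.9, -1.82 and -0.51 in lactation, against -1.48, -1.68, -1.61 and -1.47 in nulliparous mice. The knockout arrays were lower in both states, and the difference of the changes was -1.44 or beyond, since no lactating knockout array was well above background (adjusted p = 0.018). Pck1, the cytosolic enzyme of glucose and glyceride-glycerol synthesis, was singled out after its values were seen. It was not well above background on any lactating knockout array and was at least 1.53-fold lower there than on the nulliparous knockout arrays, and the difference of the changes was -1.37 or beyond (adjusted p = 0.0309). Adipose tissue contains both transcripts, and its part in these differences was not tested.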

How the data were processed

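Total RNA (200 ng per mouse, Cy3-labelled, per the labels' protocols) from 16 ventricles was hybridised to Agilent mouse arrays and scanned. The files hold the authors' deposited background-subtracted intensity values with 62976 spots on each array. Per the file headers they came from Feature Extraction 10.7.3.1. The authors' deposited value table held log2 values, which correlated at 0.942 to 0.996 with log2 intensity minus the array's 75th percentile minus the nulliparous wild-type mean, at median differences of -0.0261 to 0.0187.

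From the intensities, control spots (leaving 59305) and spots flagged as outliers were dropped, spots of a probe were averaged (55681 probes), and each array's 75th percentile was subtracted on the log2 scale. The brightest probe stood for each of 21154 genes. A gene was tested (14060 were) if some group had its probe well above background on each of 4 arrays. limma 3.58.1 (R 4.3.3) fitted 4 group means and their contrasts, with p-values adjusted by Benjamini-Hochberg at 0.05, and was checked on simulated arrays. Where every array of a group was below background, an approximate bound is given for the fold or the difference. Array number limits precision.

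Named genes are a fixed set of 15 (receptor, peptide, muscle, matrix and fuel genes), the 10 called genes that rose and the 10 that fell most without overlap, up to 4 called members per pathway list, up to 8 genes whose change differed by genotype and 6 called only without nulliparous knockout replicate 4. Other list members are named where a list is described, and some results are not reported here. Members and lists (28 pathway, 16 marker) were chosen with earlier results of these data known. Alternatives covered background correction, scaling, filters, probe choice, weights, slide, replicate blocks and left-out arrays. Promoters came from RefSeq (GRCm38.p6).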

Additional observations from a re-analysis of the deposited data

Results flagged for a closer look

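Arrays that stood far from the other 3 of their group were looked for in both knockout groups of 114 named genes, and found for 17 genes. By chance about 1 group in 20 is marked in this way, so that many of these marks could arise by chance. Nulliparous knockout replicate 4 was such an array for Cks2 (-4.18), C1qa (2.34), Lyz2 (-0.03), Acadvl (8.78), Abcc9 (5.52) and Kcnip2 (1.49), and in each it lay toward the lactating arrays. Lactating knockout replicate 4 stood high for Col3a1 (5.55), Ccnb1 (-1.23), Tpx2 (-0.62) and Cks2 (-2.75) and low for Klhl32 (0.22). Lactating knockout replicate 2 stood apart for Arntl (0.95), Glrx (2.95), C1qb (2.47) and Pi4kb (-0.56), by small distances in C1qb and Pi4kb. Single values stood apart for Angptl4 in lactating knockout replicate 3 (2.68), Acta1 in nulliparous knockout replicate 1 (3.03, with a median of 4.84 in the other 3) and Tgfb1 in nulliparous knockout replicate 2 (0.59).

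The change with lactation in the knockout minus that in wild type passed limma's adjusted test for 11 of the named genes. It was -4.96 for Tchhl1, -4.21 for Bcl2l15, -3.96 for Plaat1, -2.84 for Pck1, -2.75 for Cidec, -2.72 for Tchh, -1.22 for Pi4kb and -1.04 for Actg2. For Tchhl1 and Tchh no nulliparous wild-type array was well above background, and for Pck1 and Cidec no lactating knockout array. These 4 measured values have no order, and the bounds were -3.04 for Tchhl1, -1.86 for Tchh, -1.37 for Pck1 and -1.44 for Cidec. The difference was 2.03 for Adora3, 1.65 for St7l and 1.07 for Cdc23. Their adjusted p-values stand beside the values in the results. Of these genes Tchhl1, Bcl2l15, Tchh, Pi4kb, Adora3 and St7l lie on chromosome 3, as Npr1 does.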

How the results depend on the processing

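The count of 6203 knockout calls stayed within 1.5 times under all alternatives run except 2. It was 11692 with spike-in scaling (11531 higher, 161 lower) and 0 on slide 2 alone (limma, 2057 genes at an unadjusted p under 0.05). Leaving out 1 array gave 4802 to 7493 calls. The 13 genes whose change differed by genotype became 4 with spike-in scaling, 6 with a filter on all 16 arrays, 70 with array weights, 6 on slide 1 alone and 1 on slide 2 alone, and 10 to 20 when 1 array was left out. Deviations from the group means correlated at 0.178, -0.019, -0.006 and 0.128 between same-numbered knockout arrays. These 4 values cannot settle whether the numbers pair the samples. A replicate block gave 6184 and 9 calls. With the slide as a block they were 6374 and 12.

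Directions turned as follows, and the cause was not tested. With spike-in scaling Myh6 was 0.22, Mcm7 0.52, Acadvl 0.33, Decr1 0.25, Nr3c2 0.23, Pi4kb 0.51, Adora3 0.52, Cdc23 0.78 and Acacb 0.13. Myh7 was -0.63 with array weights, -0.28 on slide 1 alone and from -0.05 (without nulliparous replicate 4) to 1.01 with 1 array left out. Npr2 was 0 with quantile normalization and on slide 2 alone, where Klhl32 was -0.31. Cdc23 was 0.04 with quantile normalization and 0.11 with median centring. After normexp background correction Lox was -0.12, Cks2 -0.03 and Ccr2 -0.11, and Ccr2 was -0.31 on slide 1 alone. Of 30 named genes with more than 1 probe 8 had a probe of the opposite direction. With probes averaged Cd300lf was 0.01 and Atp2a2 -0.02. With probes averaged 6 named genes lost their call (Rgs4, Col15a1, Tpx2, Decr1, Cd300lf and Acaca). Nppa, Arntl, Hlf and Per1 lost it on slide 1 alone, Nppa with array weights, Myh6 with quantile normalization (-0.09), Mcm7, Per3 and Pi4kb with median centring, Lox, Cks2 and Arntl after normexp, Ccn2, Arntl and Per3 with no filter, Nppa, Ccn2, Pi4kb, Myl7 and Myl4 in the knockout arrays alone, and Ccn2 and Myl7 with a replicate block. Dim genes limit precision, since normexp shrinks their changes most.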
